A study of Mus musculus with 16 samples.

Results

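The spike-ins described here are the 23 in vitro transcribed (IVT) mouse RNAs that were designed with at least 1 partner at the same genomic locus. They were taken from the study's design table of multi-spike-in loci, which lists them under 10 loci, and each was found by its AK identifier among the 33750 transcripts of the deposited table. They are 23 of the 47 IVT spike-ins of the study, beside 24 others. Of those 24, 22 stand alone at their locus and 2 are both of Xist, on the same strand, but are not in the table of multi-spike-in loci. Total RNA came from embryoid bodies (EBs) of the R1 mouse embryonic stem cell line, taken at day 0 and at day 4 of treatment with 2 µM retinoic acid (RA), with 2 biological replicates per day. From each of these 4 RNA samples came 4 vials, with IVT mix 1, IVT mix 2, IVT mix 3 and, as mix 4, none of the IVT RNAs. That makes 16 libraries, 2 for each combination of day and mix. ERCC mix 1 was present in the vials of IVT mixes 1 and 3 and ERCC mix 2 in the rest, so that in 4 of the 6 comparisons of mixes both kinds of spike-in differ and cannot be told apart, while the ERCC mix is the same in mixes 1 and 3 and in mixes 2 and 4. The libraries of an RNA sample are therefore splits of the same RNA, and the 2 replicates of a day are the only independent samples.

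A spike-in is an RNA of known sequence and known amount that is added before library construction. When isoforms of a locus share sequence, reads from the shared part fit several transcripts, and programs such as RSEM divide them by an expectation-maximization procedure. A locus with known amounts of its isoforms shows how that division turns out. The values are FPKM (fragments scaled by transcript length and library size), so levels of transcripts of different length can be set side by side.

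The spike-ins differ in base composition, and the following stretches show what the extremes look like. They were read from GENCODE transcripts on GRCm38, not from the clones, and belong to the annotated transcript of the same gene and strand that is 153 bases shorter than the spike-in. That difference in length was found for 10 of the 23 spike-ins and was noticed after the data were seen; the next most frequent difference, 1138 bases, was found for 3. Each stretch is the window of 120 bases with the lowest or highest GC content, with G and C in capitals. For AK035433 it is chr2:52430935-52431054 on the plus strand, within a non-coding transcript of A430018G15Rik, and 24.2% of its bases are G or C. For AK017581 it is chr12:3960003-3960122 on the plus strand, in the coding sequence of a Pomc transcript, with 70.8% GC. For AK046136 it is chr8:121753057-121753176 on the plus strand, in the coding part of a Jph3 transcript, with 73.3% GC.
AK035433 (A430018G15Rik): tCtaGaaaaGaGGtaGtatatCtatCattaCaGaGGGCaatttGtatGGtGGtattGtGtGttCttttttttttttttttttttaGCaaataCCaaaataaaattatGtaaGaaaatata
AK017581 (Pomc): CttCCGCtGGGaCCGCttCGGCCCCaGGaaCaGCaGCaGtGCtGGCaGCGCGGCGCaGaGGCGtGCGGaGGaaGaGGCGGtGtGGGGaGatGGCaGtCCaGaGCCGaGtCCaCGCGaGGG
AK046136 (Jph3): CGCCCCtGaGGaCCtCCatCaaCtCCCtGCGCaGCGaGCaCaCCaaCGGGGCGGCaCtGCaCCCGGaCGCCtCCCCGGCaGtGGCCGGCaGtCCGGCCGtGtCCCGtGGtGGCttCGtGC
Over their whole length these spike-ins have 39%, 58% and 60% GC according to the design table. The 23 spike-ins ranged from 39% to 60% GC, with a median of 57%, against 33% to 59% and a median of 50% for the other 24 spike-ins. Their lengths ran from 919 to 3776 bases, with a median of 1915.

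The loci on GRCm38 belong to genes with varied roles. Dnali1, a light intermediate chain of the axonemal dynein, lies on chromosome 4 from 125055338 to 125065703 on the minus strand and is represented by AK006256 and AK077109. Pomc, the precursor of corticotropin and melanocortin peptides (chromosome 12, 3954951 to 3960642, plus), is represented by AK030714, AK017581 and AK017492. C8b, the beta chain of complement component C8 (chromosome 4, 104766317 to 104804548, plus), is represented by AK015340 and AK050313. Rasa4, a GTPase-activating protein for Ras (chromosome 5, 136083916 to 136111860, plus), is represented by AK044762 and AK029206. Acbd4, an acyl-CoA binding domain protein (chromosome 11, 103101682 to 103112200, plus), is represented by AK008207 and AK079604. Fam83f (chromosome 15, 80671847 to 80700425, plus) is represented by AK079344 and AK030342, and the antisense transcript A430088P11Rik, which overlaps it on the minus strand from 80691025 to 80697610, by AK038037. Slc1a1, a glutamate transporter (chromosome 19, 28835049 to 28913960, plus), is represented by AK045632, and 4430402I18Rik, which overlaps it on the minus strand from 28893042 to 28967800, by AK016454. Rell2, a relative of the TNF receptor RELT, is represented by AK044097 on the plus and AK014510 on the minus strand. Jph3, a junctophilin that links plasma membrane and endoplasmic reticulum (chromosome 8, 121729623 to 121794276, plus), is represented by AK045706 and AK046136. The last locus holds AK035433 and AK079699 of the non-coding A430018G15Rik (chromosome 2, 52425012 to 52434885, plus) and AK038633 of Cacnb4, a calcium channel beta subunit on the minus strand (52428320 to 52676831).

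The spike-ins of a locus followed the same order over the mixes, so that their nominal ratio was the same in mixes 1, 2 and 3. AK038037 is the exception and was kept apart from the other spike-ins of its locus. In 8 loci a pair and in 2 loci (Pomc and A430018G15Rik/Cacnb4) a triplet shared the order. In each, the spike-in with the highest nominal concentration is called the major one and the other 12 are called minor. In Rell2 both were added in equal amounts, and AK014510 was counted there as the minor one. Nominal concentrations of the 23 ran from 1.5 to 1000 attomoles/μl, in steps of 10 between the mixes.

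Before the results, 2 libraries have to be named. The mix 3 and mix 4 vials of replicate 2 of day 0 had 20555 and 20646 transcripts above 0 FPKM, the lowest numbers of the 16 libraries, while the others had 20976 to 22156. Over 13894 RefSeq transcripts with a mean of at least 1 FPKM, the log2 difference of the mix 3 vial from the other vials of the same RNA correlated with GC content with r of -0.61, and that of the mix 4 vial with r of -0.56. The mix 1 and mix 2 vials of this RNA gave r of 0.63 and 0.55, as each is set against the other 3. In the other 12 libraries r lay between -0.27 and 0.24. Transcripts rich in GC were thus low in these 2 vials. For AK006256 (57% GC) the mix 3 vial of replicate 2 gave 9.10 FPKM and that of replicate 1 gave 107 FPKM, although the same amount was added. For AK038037 (49% GC) the same vials gave 101 and 179 FPKM. The main results that rest on the mix 3 vial, or on both vials, are also given without them. Without both, mix 3 and mix 4 have 1 library each at day 0, which is assumed to vary like those of the other mixes. The pluripotency gene Pou5f1 was at a median of 76.4 FPKM at day 0 (10.4 to 94.4 over 8 libraries) and 0.939 FPKM at day 4, while the RA receptor gene Rarb was at 0.209 and 106 FPKM. Cyp26a1, which encodes an RA-degrading enzyme, went the other way, with 49.9 FPKM at day 0 and 8.82 FPKM at day 4. The neural progenitor genes Pax6 and Sox1 had medians of at most 0.348 FPKM on both days, and Nes was at 21.6 and 19.6 FPKM.

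In total the 23 spike-ins made up 183 to 1150 FPKM per library of mixes 1 to 3 and 1.21 to 3.91 FPKM in the 4 libraries of mix 4. They held between 10.1% and 10.4% of the nominal amount of all IVT spike-ins. Without spike-ins, AK030714 and AK017492 of Pomc were listed at 0 in all 4 vials. AK008207, AK030342, AK035433 and AK079699 were above 0 in all 4. AK079699 had the highest value in mix 4, where it was at 0.231 and 0.164 FPKM on day 0 and reached 1.57 and 1.37 FPKM on day 4. AK035433, from the same gene, was at 0.0840 and 0.194 FPKM on day 0 and at 0.538 and 0.682 FPKM on day 4. For both, the day 4 values lay above those of day 0. At their highest concentration all 23 spike-ins were above mix 4 in all 4 RNA samples. At their lowest concentration this held for 12 of the 23.

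The order of the 3 concentrations was kept in 86 of 92 series (23 spike-ins in 4 RNA samples). Of the 6 exceptions, 4 were Pomc spike-ins with a value of 0 and 2 were the Acbd4 spike-ins in replicate 2 of day 0, whose mix 3 vial was named above. For AK008207 that vial gave 0.305 FPKM at 100 attomoles/μl, below the 1.07 FPKM of the mix 2 vial at 10 attomoles/μl.

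Differences between mixes were first tested for each transcript, with limma on log2(FPKM + 0.1), per day, in 6 comparisons of mixes. At day 0, 25 of the 138 tests of the 23 spike-ins (18.1%) passed an adjusted p of 0.05, beside 0.0953% of all tests of that day. At day 4, 92 of 138 (66.7%) passed, beside 0.251% of all tests. Of the tests of the other 24 spike-ins, 51.4% and 86.8% passed. The 2 sets differ in more than the sharing of a locus. The 23 held at most 10.4% of the nominal amount of all IVT spike-ins, and their median GC content was 57% against 50%. The part of amount, GC content or shared locus in the different rates was not tested. Fewer tests of the 23 passed at day 0 when the mix 3 and mix 4 vials of replicate 2 were left out. That fit holds 6 libraries. Before adjustment, 108 of the 138 tests of day 0 had a limma p up to 0.05. The share of all tests with such a p is not given, so this count cannot be set against the whole table. The count at day 0 also fell without any single library of mix 1 or mix 2. The share of all transcripts that passed in the fits with libraries left out is not given. Whether these falls are particular to the spike-ins was therefore not tested.

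Among the members, AK045632 of Slc1a1 passed most often, in 10 of its 12 tests over both days. AK079344 of Fam83f, AK038037 of A430088P11Rik and AK038633 of Cacnb4 passed in 9. AK017581 of Pomc and AK079604 of Acbd4 passed in none, although their nominal amounts differed 100-fold between mixes 1 and 2. AK017581 was measured at 11.1 and 2.18 FPKM in mix 1 at day 0 and at 1.91 and 0.602 FPKM at day 4. In mix 2 it was listed at 0 in 3 of the 4 vials, with 0.0670 FPKM in replicate 1 of day 4. Mixes 1 and 2 did not overlap, but the values of replicates in mix 1 lay several-fold apart.

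At the level of the locus, when the FPKM of the spike-ins of a locus were summed, 49 of 60 tests (81.7%) passed at day 4, beside 0.204% of all genes and loci. At day 0, 12 of 60 sums passed, beside 0.105%. With the RNA sample as a replicate block, which follows from the splitting of 1 RNA into vials, 20 sums passed at day 0. Fewer than 12 passed without the mix 3 and mix 4 vials of replicate 2. The same held without any single library of mix 1, mix 2 or mix 4. The share of all genes and loci that passed with the block or with libraries left out is not given. Whether these changes are particular to the spike-ins was therefore not tested. The sums of C8b, Rasa4, Fam83f, Slc1a1/4430402I18Rik and A430018G15Rik/Cacnb4 passed all 6 comparisons at day 4. For Rasa4 the single spike-ins passed 4 (AK044762) and 5 (AK029206). For C8b they passed 3 (AK015340) and 4 (AK050313).

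The split within a locus was described by the FPKM of each spike-in as a percent of the summed FPKM of the spike-ins of its locus. Over the 12 libraries of mixes 1 to 3, the median share of a minor spike-in was above its nominal share for 10 of 12. For the 2 minor Pomc spike-ins this covers 10 libraries, since the 3 Pomc spike-ins were listed at 0 in both mix 2 vials of day 0. The median distance from the nominal share was 8.31 percentage points. This distance was 12.4 points in the mix with most RNA, 5.89 points without the mix 3 vial of replicate 2 of day 0, and 4.68 to 7.44 points with 1 RNA sample left out, the lowest without replicate 2 of day 0. The range over these libraries contained the nominal share for all 12. In the mix with most RNA, where values are highest, all 4 RNA samples were above the nominal share for 6 minor spike-ins and below it for 1, counts that were the same without the mix 3 vial of replicate 2 of day 0. This description has no test, since the members are not replicates.

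In C8b the minor isoform took more than its nominal part in each RNA sample in mixes 1 and 2. AK050313 (2392 bases, 48% GC) was added at 15% of AK015340 (1214 bases, 49% GC). In mix 2 it was measured at 33.6% and 31.9% of AK015340 at day 0 and at 42.0% and 38.3% of it at day 4. This corresponds to a ratio 2.42 times the nominal one, from levels of 66.3 to 105 FPKM for AK015340 and 21.2 to 44.2 FPKM for AK050313. In mix 3, where the pair summed to at most 0.495 FPKM, the share of AK050313, nominally 13.04%, was 34.7% and 33.3% at day 0 and 100% and 10.5% at day 4, the last below the nominal share. The annotated transcripts that are 153 bases shorter than these spike-ins share sequence. Of the 100-base windows of the transcript matched to AK015340, 68.2% occur in that matched to AK050313, and 30.7% the other way. The table holds 0 RefSeq transcripts matched to C8b, so the pair shared its reads with no other listed transcript of the gene.

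The Dnali1 pair was added in the same proportion but varied more. AK077109 (2239 bases, 52% GC), nominally at 15% of AK006256 (973 bases, 57% GC), was measured in mix 3 at 14.6% and 59.3% of it at day 0 and at 28.3% and 40.0% at day 4. The 2 replicates of day 0 enclosed those of day 4. The value of 59.3% came from the mix 3 vial of replicate 2, in which AK006256 was at 9.10 FPKM and AK077109 at 5.40 FPKM. In mix 1, where AK006256 was added at 10 attomoles/μl, replicate 1 of day 4 listed it at 0, and it was between 0.0870 and 0.405 FPKM in the other 3 vials.

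In Rasa4, AK029206 (1623 bases, 54% GC) was added at 30% of AK044762 (2836 bases, 57% GC). In mix 3 it was at 36.8% and 58.1% of AK044762 at day 0 and at 56.2% and 54.8% at day 4, above the nominal value in all 4 RNA samples, where the 58.1% came from the vial named above. In the other mixes the direction was not the same on both days. The share of AK029206 in the sum of the pair, nominally 23.1%, was 16.01% and 19.7% in mix 1 and 15.5% and 16.6% in mix 2 at day 0, below the nominal share. At day 4 it was 32.0% and 25.5% in mix 1 and 27.9% and 28.9% in mix 2, above it. The annotated transcripts matched by length share few 100-base windows, 1.31% of that of AK029206 and 0.697% of that of AK044762. The RefSeq transcripts of Rasa4 took at most 0.511% of the signal of the locus in that mix.

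For the pair of opposite strand at Slc1a1 the split was close to the nominal one in 2 mixes and far from it in the third. In mix 1, AK045632 (1000 attomoles/μl) was at 195 and 157 FPKM at day 0 and at 270 and 213 FPKM at day 4, and AK016454 (300 attomoles/μl) at 42.7 and 37.6 FPKM and at 75.5 and 60.9 FPKM. AK016454 thus stood at 21.9% to 28.6% of AK045632, against 30% nominally. In mix 3, at 10 attomoles/μl, AK045632 was at 0.301 and 0.0880 FPKM at day 0 and at 0.289 and 0.210 FPKM at day 4. AK016454, at 3 attomoles/μl, was at 1.37 and 0.728 FPKM and at 1.65 and 1.33 FPKM. The minor spike-in was therefore above the major one in all 4 vials of mix 3 and in none of the 8 vials of mixes 1 and 2. Scaled down from mix 1, AK045632 reached 5.62% to 15.4% of the proportional level in mix 3 and AK016454 reached 193% to 320%. In mix 4, AK016454 was at 0.0840 FPKM in replicate 1 of day 0 and listed at 0 in the other 3 vials, so that its mix 3 values lay above the level without spike-in. The nominal amounts rest on the design table, and how mix 3 was prepared was not tested, so that a difference in the amount added and one in the quantification cannot be told apart. The annotated transcripts of the pair share 0% of their 100-base windows.

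The ratio within a locus was tested between mixes with limma's diffSplice, which compares the log2 change of a transcript with that of the other transcripts of the locus. The nominal change is 0 and library scaling cancels where values lie far above the pseudocount of 0.1 FPKM. For values near or below it neither holds exactly. At day 0, 0 of 42 ratio tests passed, beside 0.0891% of all tests. Of the 42, 3 had a raw diffSplice p up to 0.05, and the share of all ratio tests with such a p is not given. At day 4, 6 of 42 passed, beside 0.597%. AK016454 accounted for 2 of the 6: relative to AK045632 its change from mix 3 to mix 1 was -4.01 ± 0.25 (SE) on the log2 scale (diffSplice adjusted p = 3.2e-05), and from mix 3 to mix 2 it was -3.91 ± 0.25 (adjusted p = 0.000109). At day 0 the same ratios were -4.13 ± 0.60 (adjusted p = 0.0545) and -3.83 ± 0.60 (adjusted p = 0.0662). With the replicate block 2 tests passed at day 0, both of AK016454 (diffSplice adjusted p = 0.0165 and 0.0176). The share of all ratio tests that passed with the block is not given. With 1 library left out, these 2 ratios at day 0 ranged from -4.26 to -3.99 and from -3.97 to -3.70. The estimates of the days lay within 1 SE of day 0 of each other.

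The other 4 ratio calls at day 4 came from the A430018G15Rik/Cacnb4 triplet. Relative to the other spike-ins of the locus, AK079699 changed by -1.61 ± 0.20 between mix 3 and mix 1 (diffSplice adjusted p = 0.000709) and by -1.67 ± 0.20 between mix 3 and mix 2 (adjusted p = 0.00113). In mix 3 at day 4 it was at 1.76 and 1.62 FPKM, close to the 1.57 and 1.37 FPKM of mix 4, in which none was added. Relative to AK035433 and AK079699 together, AK038633 changed by 1.02 ± 0.20 and 1.16 ± 0.20 (adjusted p = 0.0276 and 0.0131). AK079699 is part of that reference, so these 2 calls are not independent of those of AK079699 and do not show a change of AK038633 by itself. AK035433, set against the other 2 in the same way, was not called (adjusted p = 0.349 and 0.529). With a pseudocount of 1 the adjusted p of AK038633 were 0.509 and 0.270. The range of the adjusted p of AK038633 over all alternatives was 0.0104 to 0.509 for the first comparison and 0.00532 to 0.270 for the second.

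The Pomc spike-ins gave low signal for their amount. AK030714 was added at 1000 attomoles/μl in mix 1 and was measured at 11.5 and 3.21 FPKM at day 0 and at 2.88 and 2.07 FPKM at day 4. AK017492, at 150 attomoles/μl, was at 7.89 and 4.05 FPKM and at 2.22 and 1.61 FPKM. AK017581, at the same 150 attomoles/μl, was nominally at 15% of AK030714 but was measured at 96.1% and 67.8% of it at day 0 and at 66.3% and 29.1% at day 4. All 8 ratios of the minor Pomc spike-ins to AK030714 in mix 1 lay above the nominal 15%. At 1130 to 1195 bases, the 3 spike-ins are of nearly equal length and GC content (57% to 58%).

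Beside them, the table holds 5 RefSeq transcripts of Pomc, and these took most of the signal of the locus. NM_001278583 was at 45.7 and 21.8 FPKM in mix 1 at day 0 and at 28.0 and 17.98 FPKM at day 4, above each of the 3 spike-ins in every vial of that mix. In mix 4 it was listed at 0 in all 4 vials. In mix 1 the RefSeq transcripts of Pomc together held 61.8% to 81.0% of the FPKM of the locus, with a median of 75.6%. The annotated transcript matched to AK017581 has 84.2% of its 100-base windows in that of NM_001278583. It shares as many or more with other RefSeq transcripts that were at low levels. That of NM_001278584 holds 100% of the windows, and in mix 1 it was at 2.49 and 1.00 FPKM at day 0 and at 0.0980 and 0.223 FPKM at day 4. That of NM_008895 and NM_001278581 holds 89.4%, and in mix 1 NM_008895 was at 1.00 and 0.334 FPKM at day 0 and at 0.0490 FPKM and 0 at day 4, while NM_001278581 was listed at 0.

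In Acbd4 a RefSeq transcript was also higher in mix 1, but passed no comparison of mixes on either day (lowest limma adjusted p = 0.0878), whereas NM_001278583 passed those with mix 1 at day 4. The RefSeq transcript NM_025988 was at 27.7 and 14.6 FPKM in mix 1 at day 0 and at 9.34 and 6.22 FPKM at day 4, against 4.92 and 0.513 FPKM and 0.575 and 0.598 FPKM in mix 4, so that it had a level of its own without spike-ins. It held 13.8% to 23.7% of the signal of the locus in mix 1. For Rell2, NM_153793 reached 4.96 FPKM in the mix 3 vial of replicate 1 of day 0, 4.38% of the locus, and was listed at 0 in mix 3 in the other 3 RNA samples. For the other loci the RefSeq transcripts of the same genes held at most 0.511% in the mix with most RNA. In mixes with less RNA their part could be larger. In the mix 2 vial of replicate 2 of day 4, NM_020605 of Jph3 was at 0.238 FPKM. In that vial AK045706 was listed at 0 and AK046136 was at 0.114 FPKM. In all, 20 RefSeq transcripts carry the gene symbols of the 23 spike-ins, with 0 for Dnali1, C8b and A430018G15Rik.

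The Acbd4 spike-ins lay on different sides of the nominal ratio on the 2 days in mix 1, where most of them was added. AK079604 (2099 bases) was added at 30% of AK008207 (1233 bases), both with 58% GC. In mix 1 it was at 14.5% and 17.7% of AK008207 at day 0 and at 43.9% and 37.6% at day 4. AK008207 was at 137 and 77.2 FPKM at day 0 and at 20.9 and 17.1 FPKM at day 4, AK079604 at 19.8 and 13.7 FPKM and at 9.17 and 6.43 FPKM. Both were lower at day 4 in mix 1, AK008207 by the larger factor. The other mixes did not show this. The share of AK079604 in the sum of the pair, nominally 23.1%, was 9.52% and 19.3% at day 0 and 9.69% and 9.64% at day 4 in mix 2. In mix 3 it was 23.6% and 36.7% at day 0, the latter in the vial named above, and 26.5% and 22.5% at day 4. These shares include a level without spike-ins. In mix 2 AK079604 was at 0.237 and 0.256 FPKM at day 0 and at 0.144 and 0.0670 FPKM at day 4. In mix 4 it was at 0.274 FPKM and 0 at day 0 and at 0.241 FPKM and 0 at day 4. In replicate 2 of day 0, AK008207 was at 0.305 FPKM in mix 3 and at 0.310 FPKM in mix 4.

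The Fam83f pair, with 57% GC in both, went the other way. AK030342 (3125 bases), nominally at 30% of AK079344 (2477 bases), was in mix 2 at 53.1% and 44.2% of it at day 0 and at 26.6% and 20.5% at day 4. AK079344 was at 120 and 79.6 FPKM at day 0 and at 188 and 171 FPKM at day 4, and AK030342 at 63.9 and 35.2 FPKM and at 49.96 and 35.1 FPKM. The major spike-in was thus higher at day 4 in mix 2, while the values of the minor one overlapped. In mix 1 the share of AK030342 in the sum of the pair was also lower at day 4, with 41.0% and 42.3% at day 0 and 19.5% and 18.7% at day 4. The days overlapped in mix 3, with 75.8% and 36.4% and then 41.9% and 26.6%. At day 0 AK030342 was at 1.08 and 0.197 FPKM in mix 3, beside 0.663 and 0.194 FPKM in mix 4. These mix 3 shares of day 0 thus include a level without spike-ins. Its antisense neighbour AK038037 was at 179 and 101 FPKM in mix 3 at day 0 and at 199 and 184 FPKM on day 4.

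The Jph3 pair has 60% GC in both members. AK046136 (3005 bases) was added at 45% of AK045706 (3776 bases). In mix 1 it was at 55.8% and 58.5% of AK045706 at day 0 and at 124% and 141% at day 4, so that the minor spike-in was above the major one in both replicates of day 4. AK045706 was at 109 and 46.2 FPKM at day 0 and at 21.6 and 14.5 FPKM at day 4. AK046136 was at 60.5 and 27.0 FPKM and at 26.8 and 20.4 FPKM. The day 0 values of both lay above those of day 4, for AK046136 by as little as 27.0 against 26.8 FPKM. In mix 2 the share of AK046136 in the sum of the pair was also higher at day 4, from sums of at most 1.44 FPKM, and in mix 3 the days overlapped, with 39.4% and 66.3% at day 0 and 49.3% and 63.3% at day 4.

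The Rell2 pair had the largest distance of a minor spike-in from its nominal share, by the median over the libraries of mixes 1 to 3. The spike-ins of opposite strand were added in equal amounts, and AK014510 (1475 bases, 54% GC) was above AK044097 (1867 bases, 60% GC) in 10 of 12 libraries. The exceptions were both mix 1 vials of day 0, where AK014510 held 16.02% and 33.4% of the sum of the pair, from sums of 1.19 and 0.578 FPKM. In mix 3, at 450 attomoles/μl each, AK014510 was at 70.5 and 27.3 FPKM at day 0 and at 60.9 and 49.9 FPKM at day 4. AK044097 was at 37.8 and 2.13 FPKM and at 12.2 and 5.42 FPKM. The ratio was 187% and 1280% at day 0 and 497% and 921% at day 4, and the value of 1280% came from the mix 3 vial of replicate 2. The median share of AK014510 over the 12 libraries was 82.2%, against 50% nominally.

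In the A430018G15Rik/Cacnb4 triplet the major spike-in was the one with the lowest GC content and was higher at day 4. AK035433 (1467 bases, 39% GC) was at 132 and 124 FPKM in mix 2 at day 0 and at 386 and 480 FPKM at day 4. AK079699 (919 bases, 49% GC), nominally at 45% of it, was at 72.2% and 56.9% of it at day 0 and at 30.7% and 19.1% at day 4. AK038633 (2477 bases, 46% GC), also at 45%, was at 77.4% and 63.4% at day 0 and at 43.2% and 34.5% at day 4. Both minor spike-ins were above the nominal ratio in both replicates of day 0 and below it in both replicates of day 4. AK038633 was at 102 and 78.5 FPKM in mix 2 at day 0 and at 167 and 166 FPKM at day 4, without overlap. AK079699 was at 95.6 and 70.6 FPKM and at 119 and 91.7 FPKM, which overlap. Mix 1 showed the same order of the days in the shares of both minor spike-ins. In mix 3 the share of AK079699 was higher at day 4, with 27.9% and 13.5% at day 0 and 36.1% and 31.9% at day 4, and that of AK038633 overlapped between the days. The mix 3 shares of AK079699 include its level without spike-ins, which was higher at day 4.

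Day 4 was then compared with day 0 on the mean of log2(FPKM + 0.1) over the vials of mixes 1, 2 and 3 of an RNA sample, 2 against 2, with limma. The same amounts were added on both days. Of the 23 spike-ins, 1 passed with a higher value at day 4, beside 11.8% of all 27807 transcripts, and 0 passed with a lower one, beside 9.06%. In both directions 20.9% of all transcripts passed. The 1 spike-in was AK035433, with a difference of 1.64 ± 0.17 (SE) on the log2 scale or 3.11-fold (limma adjusted p = 0.0193). It passed in 8 of 11 alternatives, with adjusted p between 0.00607 and 0.206. The 3 misses were the fits without 1 RNA sample other than replicate 2 of day 0, in which 0% of all transcripts passed, and with 1 RNA sample left out its difference was 1.47 to 1.80. After rescaling by the median ratio, AK079699, AK079344 and AK038633 were also called higher, beside 21.4% of all transcripts in both directions. With a mean of at least 1 FPKM, AK079699 and AK038633 were also called higher, beside 32.2%. The day difference of AK079699 includes a level without spike-ins that was itself higher at day 4. In mix 4 it was at 0.231 and 0.164 FPKM at day 0 and at 1.57 and 1.37 FPKM at day 4. In mix 3, at day 4, it was at 1.76 and 1.62 FPKM. Its calls are therefore not those of the added amount alone. Of the other 24 spike-ins 9 passed in the main fit (37.5%), all higher at day 4. The median difference was -0.02 for the 23, 0.49 for the 24 and -0.06 for all transcripts.

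With the replicate number as a block, 5 of the 23 were called higher (AK035433, AK079699, AK038633, AK079344 and AK016454) and 1 lower (AK045706), beside 37.5% of all transcripts. The study obtained its 2 replicates by repeating the extraction on both days, but that equal numbers mark 1 such repeat is not stated. With all vials and no block, no decrease passed. The lowest estimate was that of AK045706 of Jph3, with -1.43 ± 0.87 (limma adjusted p = 0.290, and 0.0393 with the block) and -2.43 to -0.44 with 1 RNA sample left out. AK044097 of Rell2 was at -1.18 ± 0.91 (limma adjusted p = 0.391), with -2.34 to -0.02 when 1 RNA sample was left out. AK008207 of Acbd4 was at -0.93 ± 0.83 (limma adjusted p = 0.445), with -2.01 to 0.15. After correction for GC content the sign of both turned, to 0.0779 for AK044097 and 0.44 for AK008207. In these 3 the replicates of day 0 were far apart: the mean log2 value of AK044097 was 2.44 in replicate 1 and 0.11 in replicate 2. When the mix 3 vial of replicate 2 was left out, and the mean of that RNA sample was taken from its mix 1 and mix 2 vials after centring each mix, 3 of the 23 were called higher (AK035433, AK079699 and AK038633) and 3 lower (AK006256, AK008207 and AK044762), beside 46.6% of all transcripts.

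The difference between the days varied with GC content, whose part in the calls above was not tested otherwise than by the correction given here. Across the 23 spike-ins Pearson's r between the log2 difference and GC content was -0.86, and it was -0.89 across the other 24, as a description of points that share the same libraries. Without the mix 3 vial of replicate 2 of day 0 these values were -0.85 and -0.89. Of the 9 spike-ins with at most 52% GC, 8 had a higher mean at day 4, the exception being AK015340 of C8b with -0.02. Of the 14 with 54% or more, 12 had a lower mean, the exceptions being AK079344 with 0.72 and AK014510 with 0.53. Both counts were the same without that vial. With length, on a log2 scale, r was -0.07, and -0.05 without the vial. When the FPKM of each library were corrected for GC content from RefSeq transcripts, 8 of the 23 were called higher and 0 lower, beside 38.2% of all transcripts.

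Measured ratios within a locus are free of library scaling, but tested ones only where values lie far above the pseudocount of 0.1 FPKM. Between the days, 1 of 14 ratio tests passed, beside 13.4% of all tests: AK035433 rose relative to the other spike-ins of its locus by 0.84 ± 0.20 (diffSplice adjusted p = 0.0370). This call was kept in 4 of 9 alternatives, with adjusted p between 0.00216 and 0.349. Without replicate 2 of day 0 it was 1 of 4 calls, beside 27.2% of all ratio tests. Without any 1 of the other RNA samples there were 0 calls, beside 1.19% to 9.63% of all ratio tests. With the mix 3 vial of replicate 2 of day 0 left out, 2 tests passed, beside 30.9% of all ratio tests. In the mix with most RNA, the shift of the log2 ratio from day 0 to day 4 correlated with the difference in GC content with r of -0.61 over 12 pairs, and with the log2 ratio of lengths with r of 0.14. Without the mix 3 vial, which is part of the ratio of Dnali1, Rasa4 and Rell2, these r were -0.76 and 0.12. The shifts of these 3 pairs were then 1.201, 0.593 and 1.86, from 1 library at day 0. The ratio was higher at day 4 in all 5 pairs whose minor spike-in had the lower GC content, and in 2 of the 7 other pairs, with or without that vial. The 3 pairs of equal listed GC content still moved: by 1.34 for Acbd4, 1.21 for Jph3 and -1.05 for Fam83f. The pairs share libraries and the triplets share a major spike-in, so no p is given.

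The distance of the ratio from its nominal value was described in the same way. In the mix with most RNA, 9 of 12 pairs lay above the nominal ratio on average, with a median excess of 0.85 on the log2 scale. Its r with the GC difference was -0.12 at day 0 and -0.59 at day 4, and its r with the log2 length ratio was -0.18 and -0.07. Without the mix 3 vial the values of day 0 were 0.15 and -0.20, so that the sign of r with the GC difference depended on that vial.

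The signal per amount differed widely among the 23. In the mix with most RNA the median over the 4 RNA samples was lowest for AK030714 of Pomc, with 0.00305 FPKM per attomole/μl, and highest for AK038633 of Cacnb4, with 0.298, which is 97.7-fold. The median of the 23 was 0.0907, against 0.159 for the other 24. The 4 lowest were the Pomc triplet and AK044097 of Rell2 (0.0196, and 0.0272 without the mix 3 vial of replicate 2 of day 0). The 4 highest were AK038633, AK035433 (0.259), AK050313 of C8b (0.219) and AK079699 (0.208), with 39% to 49% GC. Averaged over the mixes, log2 of FPKM per attomole correlated with GC content with r of -0.29 and -0.61 in the replicates of day 0 and of -0.65 and -0.74 at day 4. Without the Pomc triplet r was -0.12 and -0.78 at day 0 and -0.71 and -0.83 at day 4. For log2 length r was 0.49 and 0.38 at day 0 and 0.37 and 0.22 at day 4 with the triplet, and 0.31, 0.06, 0.11 and -0.14 without it. For replicate 2 of day 0 without its mix 3 vial, r with GC was -0.49 with the triplet and -0.60 without it, and r with length was 0.37 and 0.03. The r with GC content was thus negative in all 4 RNA samples and weakest in replicate 1 of day 0, and the correlation with length was weaker without Pomc.

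The slope of log2(FPKM + 0.01) on log2 concentration over the mixes is 1 where the signal is proportional to the amount. Its mean over the 4 RNA samples had a median of 1.07 among the 23, from 0.78 to 1.49. It lay between 0.9 and 1.1 for 9 spike-ins, below for 3 and above for 11. AK045632 of Slc1a1 was the steepest (1.49 ± 0.08, SD, n = 4), and its partner AK016454 was among the 3 flattest (0.81 ± 0.05), so that the pair diverged in every RNA sample. AK008207 of Acbd4 had 0.78 ± 0.16, and in mix 2 it was at 2.25, 1.07, 1.34 and 0.628 FPKM, beside 1.34, 0.310, 0.678 and 0.710 FPKM in mix 4. AK038037, the antisense transcript kept apart, had 1.07 ± 0.04. AK015340 of C8b had 1.41 ± 0.40, and its slope of 2.01 in replicate 1 of day 4 came from a value listed at 0 in mix 3.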

How the data were processed

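Per the labels and methods, the authors mapped the paired, stranded reads with bowtie2 2.1.0 to mm10 RefSeq transcripts and spike-in sequences. They estimated abundance with RSEM 1.2.18 and deposited FPKM normalized by TMM (trimmed mean of M values). Values between 0 and 1 FPKM (7661 to 8823 per library) were multiples of 0.01 FPKM before this factor, within 0.0006 FPKM, and higher values were not checked. Counts per transcript were not used here, so the depth behind a value is unknown. TopHat2 results and ERCC spike-ins were not analysed here. The study's design tables gave the nominal concentration, length and GC content.

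The tools were limma 3.58.1 in R 4.3.3 and pandas 2.3.3 in Python 3.11.15. Mixes were compared on log2(FPKM + 0.1) by a limma linear model of the 8 libraries of a day with a trended prior variance and no block, leaving out transcripts at 0 throughout. Benjamini-Hochberg adjustment ran over all transcripts of a comparison, with an adjusted p of at most 0.05. Fold changes on this scale understate those of low values. Ratios used diffSplice on the same fits. Days were compared in the same way on 4 RNA samples, each the mean of its vials of mixes 1 to 3. A symbol was found for 98.6% of RefSeq transcripts, and a GC content, from GENCODE M21, for 97.4%. The fits were tested on simulated data, where the share of false calls was above the threshold for the ratio test and below it for the other fits. The simulated noise had the same spread for all transcripts and did not vary with GC content, unlike the vials of replicate 2 of day 0. The share of false calls in the real data was therefore not tested. The members and lists were chosen with earlier results of these data known. All 23 spike-ins and the RefSeq transcripts of their genes are named, the latter by their number and by those with the largest values in mixes 1 to 3.

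Within a day, vials with the same replicate number hold the same RNA, per the study's methods. The procedure was repeated for the second replicate of both days, but that equal numbers mark 1 repeat is not stated. The replicate differences of the days had an r of 0.58 (14095 transcripts). The replicate differences of any pair of mixes had an r of 0.43 to 0.92 at day 0 (13819 transcripts) and 0.05 to 0.52 at day 4 (13070). Alternatives were other pseudocounts, a minimum of 1 FPKM, a replicate block, no trend, rescaling, GC correction, RefSeq transcripts added to a locus and each library or RNA sample left out, where a group left with 1 sample was assumed to vary like the others. Leaving out the vials that stand apart was added after seeing the data.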

Additional observations from a re-analysis of the deposited data

Results flagged for a closer look

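Among transcripts that were not spiked, 2 were high in the mix where the spike-ins of their gene were highest. NM_001278583 of Pomc was at 17.98 FPKM or more in all 4 vials of mix 1 and listed at 0 in mix 4. NM_025988 of Acbd4 was at 6.22 FPKM or more in the 4 vials of mix 1 and at most at 4.92 FPKM in mix 4. By limma, NM_001278583 passed in each comparison of mix 1 with another mix at day 4 (adjusted p = 0.000526 to 0.00712) and in 0 at day 0 (adjusted p = 0.244 to 0.782), and NM_025988 passed in 0 on both days (adjusted p = 0.0878 at the lowest). The part of shared sequence in these values was not tested. In 4 pairs, both replicates of day 0 lay on one side of the nominal ratio and both of day 4 on the other, in the mix with most RNA. The log2 ratio of AK079604 to AK008207 (Acbd4) shifted by 1.34 from day 0 to day 4, that of AK030342 to AK079344 (Fam83f) by -1.05, that of AK079699 to AK035433 by -1.40 and that of AK038633 to AK035433 by -0.86. The difference was not tested in that mix. Over all mixes, diffSplice gave an adjusted p of 0.922 for AK079604, 0.195 for AK030342, 0.259 for AK079699 and 0.174 for AK038633. Groups of 2 libraries are too small to look for single distant samples.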

How the results depend on the processing

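Over 31 results and 35 alternative settings, 115 of 162 values from settings that leave out no replicate kept their direction and their side of the threshold, or stayed within 1.5 times the count. The cause of the changes was not tested. In this section the share of all tests that passed is given only for some comparisons between days. Elsewhere a changed count does not show whether the change is particular to the spike-ins. The slope had a median of 1.07 with a pseudocount of 0.01, 0.999 with 0.1, 0.728 with 1 and 1.12 without the mix 3 vial of replicate 2 of day 0. The median distance from the nominal share was 8.31 points over all mixes, 12.4 in the mix with most RNA and 5.89 without that vial. Ratio calls between mixes at day 0 numbered 0, and 2 with a pseudocount of 1, with the replicate block or without the mix 3 and mix 4 vials of replicate 2. Ratio calls between days numbered 1, 0 with a pseudocount of 0.01 or a mean of at least 1 FPKM, and 2 with a pseudocount of 1 or without the mix 3 vial. Calls between mixes at day 0 fell from 25 to 5 and those of locus sums from 12 to 3 without both vials, and the sums rose to 20 with the replicate block. Spike-ins called higher at day 4 numbered 1, but 3 with a mean of at least 1 FPKM (beside 32.2% of all transcripts in both directions) or without the mix 3 vial (46.6%), 5 with the replicate number as a block (37.5%), 4 after rescaling (21.4%) and 8 after GC correction (38.2%). Spike-ins called lower numbered 0, but 1 with the block (AK045706) and 3 without the mix 3 vial. After GC correction the day difference turned to 0.0779 (AK044097) and to 0.44 for AK008207, and the latter ranged from -2.01 to 0.15 with 1 RNA sample left out, the upper value without replicate 1 of day 0. With 1 library left out, calls between mixes numbered 7 to 30 (day 0) and 62 to 83 (day 4), those of locus sums 2 to 12 and 33 to 41, and those of ratios 0 to 2 and 4 to 8. With 1 RNA sample left out, calls higher at day 4 ranged from 0 to 1 and calls lower numbered 0, but in 3 of the 4 fits no transcript of the table passed, so that these counts say nothing about the spike-ins. With the same samples left out, ratio calls between days ranged from 0 to 4, the distance of shares from 4.68 to 7.44 points, the slope from 1.06 to 1.11, r with GC from -0.67 to -0.52 and r with length from 0.32 to 0.41, about their means of -0.57 and 0.36. The replicate block changed no count other than those given by more than 1.5 times. Depth per transcript is unknown, so values below 1 FPKM have no error of their own beyond the spread of 2 replicates.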
